A study of Mus musculus with 12 samples.

Results

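Chromosome 11 of the mouse carries Adam19, the gene targeted in this study, and 8 further genes of that chromosome are described here: Lyrm7, Zfp39, Tvp23b, 2610507I01Rik, Gm12191, Gm6685, Gm38534 and Gm12167. They were chosen by their gene values, which differed between Adam19 knockout (KO) and wild-type (WT) mice in earlier results of these same data, so the differences between KO and WT given for them are descriptions, with no test. The 8 genes stand among 55679 genes in the deposited gene table, of which 3075 lie on chromosome 11, and they have 19 of the 147907 transcripts in the transcript table.

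RNA came from the whole lung and whole heart of 6 adult male mice of strain 129S6/SvEvTac, 3 WT and 3 KO, and each tissue of each mouse gave 1 library, 12 in all. In the KO mice both copies of Adam19 had exons 6 and 7 replaced by an in-frame tdTomato construct, a red fluorescent reporter, with a hygromycin resistance cassette, in every cell of the body. WT mice carried neither. A replicate number names 1 mouse within a genotype, whose lung and heart were both sequenced. No prefix of a mouse identifier occurs in both genotypes, so a difference between litters or cages, if the prefixes mark these, cannot be told apart from the genotype. Reads were quantified per transcript, and the estimated counts of a library summed to between 17674788 and 35862932. Values are on a log2 scale, on which a difference of 1 is a doubling, and a 0 stands for no estimated read and leaves room for up to 3. Adam19 itself had gene values of 9.12 to 9.41 in WT lungs and 3.21 to 4.44 in KO lungs, and of 9.17 to 10.27 in WT hearts and 6.01 to 6.67 in KO hearts, so the labels and the targeted gene went together in all 12 libraries. The separate entry for the Adam19-tdTomato fusion was at 10.34 to 11.60 in KO libraries. It was at 2.16 in WT heart 1 and at 0 in the other WT libraries, and the source of the 2.16 was not tested.

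Summed values of 6 lung epithelium markers were 18.84 to 19.13 in the lungs and 6.45 to 10.71 in the hearts, and 6 heart muscle markers were at 20.72 to 21.00 in the hearts and 13.23 to 14.53 in the lungs. Each of these lists, and lists for red blood cells, adipocytes, skeletal muscle, lymphocytes and macrophages, had overlapping ranges in WT and KO libraries of the same tissue. Some lung libraries stood apart in the share of the small cytoplasmic RNA Rn7s1, which took 34.0%, 29.9% and 2.10% of the summed gene values in WT lungs 1, 2 and 3 and 3.22% to 20.3% in KO lungs, against 2.70% to 11.8% in the hearts. Its part in the differences below was not tested. In whole tissue, fewer cells of a type and less RNA per cell cannot be told apart.

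The 8 genes are of 3 kinds. Lyrm7 encodes a mitochondrial protein of the LYR motif family that holds the Rieske iron-sulfur protein until it is built into respiratory complex III, Tvp23b encodes a membrane protein of the Golgi apparatus, and Zfp39 encodes a zinc finger protein, a class of DNA-binding proteins. 2610507I01Rik, Gm38534 and Gm12167 are annotated as long non-coding RNAs. Gm12191 and Gm6685 are processed pseudogenes, copies of a spliced messenger RNA that were written back into the genome, and reads from such a copy can be hard to tell from reads of the parent gene.

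On build GRCm39, with GENCODE vM39 annotation, Adam19 spans chr11:45946775-46038172 on the forward strand. Gm6685 (ENSMUSG00000032889.8) lies on the other side of Adam19 from the rest, at chr11:28289128-28289814 on the reverse strand, 17.7 Mb away. Gm12167 (ENSMUSG00000085853.2) is the nearest, at chr11:46232983-46235993 on the forward strand, only 195 kb past the end of Adam19, so it is not a distant gene. Gm12191 (ENSMUSG00000083061.2) lies 3.53 Mb from Adam19 at chr11:49569537-49569884 on the reverse strand, within an intron of Cnot6 and on the same strand as that gene. Lyrm7 (ENSMUSG00000020268.15) spans chr11:54717692-54751742 on the reverse strand at 8.68 Mb, and 130 nucleotides of its exons overlap the antisense Gm57377. Zfp39 (ENSMUSG00000037001.11) spans chr11:58778938-58795069 on the reverse strand at 12.7 Mb, and its antisense partner Gm12256 was listed at 0 in all 12 libraries. 2610507I01Rik (ENSMUSG00000085882.3) spans chr11:59087691-59093273 on the reverse strand at 13.0 Mb, and its 5′ end lies 30 nucleotides from Mrpl55. Tvp23b (ENSMUSG00000014177.11) spans chr11:62770265-62807610 on the forward strand at 16.7 Mb, and Gm38534 (ENSMUSG00000108634.3) spans chr11:88104796-88168662 on the forward strand at 42.1 Mb.

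The 2 pseudogenes are shown in sequence because their values turn on how few bases separate them from another gene. All 687 nucleotides of Gm6685 align without a gap to the coding sequence of Cyb5d1, a gene for a cytochrome b5 domain protein at chr11:69271979-69286538, and 5 bases differ. Written with the base of Cyb5d1 first, the position counted from 1 at the 5′ end of Gm6685, and then the base of Gm6685, they are T92C, G273A, G281T, A303G and G562T. All 348 nucleotides of Gm12191 align to the coding sequence of Rpl30, a protein of the large ribosomal subunit encoded on chromosome 15, and 1 base differs, G96A. The windows around these bases follow, 5′ to 3′, with the differing bases in capitals. They lie on the reverse strand at chr11:28289693-28289753, chr11:28289482-28289572 and chr11:28289223-28289283 for Gm6685 and at chr11:49569759-49569819 for Gm12191.
Gm6685, positions 62 to 122: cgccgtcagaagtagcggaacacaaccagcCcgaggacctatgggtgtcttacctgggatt
Cyb5d1, same stretch: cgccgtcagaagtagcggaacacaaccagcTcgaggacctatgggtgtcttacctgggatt
Gm6685, positions 243 to 333: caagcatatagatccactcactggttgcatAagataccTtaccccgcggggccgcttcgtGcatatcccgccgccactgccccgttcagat
Cyb5d1, same stretch: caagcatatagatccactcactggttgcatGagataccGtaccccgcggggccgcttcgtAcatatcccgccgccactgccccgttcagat
Gm6685, positions 532 to 592: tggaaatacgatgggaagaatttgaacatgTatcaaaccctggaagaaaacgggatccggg
Cyb5d1, same stretch: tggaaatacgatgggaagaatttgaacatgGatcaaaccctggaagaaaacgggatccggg
Gm12191, positions 66 to 126: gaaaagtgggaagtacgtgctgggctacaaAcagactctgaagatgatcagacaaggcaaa
Rpl30, same stretch: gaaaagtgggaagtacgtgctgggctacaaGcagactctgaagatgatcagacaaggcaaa
A read that covers none of these bases matches both genes equally well.

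Lyrm7 was higher in KO lungs than in WT lungs. Its gene values were 3.66, 3.35 and 3.26 in WT lungs 1, 2 and 3 and 4.68, 4.49 and 4.99 in KO lungs, a difference of 1.29 on the log2 scale (standard error 0.19, n = 3 mice per genotype), and the groups did not overlap. In the heart, where Lyrm7 was far more abundant, the values were 7.80, 7.50 and 7.22 in WT and 7.78, 8.37 and 8.56 in KO, and the difference was 0.73 (standard error 0.29). The heart groups overlapped narrowly, since KO heart 1 lay just under WT heart 1. The lung values rest on few reads, 6.42 to 33.2 estimated counts per library. When the estimated counts of the 6 transcripts were summed instead, the lungs overlapped (4.60, 4.27 and 2.64 in WT, 4.69, 4.49 and 4.61 in KO) with a difference of 0.76, and the hearts no longer did (6.66 to 7.64 in WT, 7.74 to 8.09 in KO).

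Zfp39 was also higher in the KO mice, and its WT mice differed widely among themselves. In the lung it was at 8.31, 7.54 and 6.81 in WT replicates 1, 2 and 3 and at 8.53, 8.62 and 8.66 in KO, a difference of 1.05 (standard error 0.43). In the heart it was at 7.67, 7.49 and 6.78 in WT and at 8.02, 7.89 and 7.94 in KO, a difference of 0.63 (standard error 0.27), or 0.36 without WT heart 3. The groups did not overlap in either tissue. The 3 WT mice came in the same order in lung and heart, and WT replicate 1 lay within 0.22 of the lowest KO library in both, while the SD of the KO libraries was 0.066 in the lung and 0.063 in the heart.

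Tvp23b was the protein-coding gene of the set that was lower in KO. Lung values were 9.49, 9.74 and 10.19 in WT and 9.13, 9.03 and 9.19 in KO, a difference of -0.69 (standard error 0.21). Heart values were 8.90, 9.09 and 8.93 in WT and 8.66, 8.45 and 8.79 in KO, a difference of -0.34 (standard error 0.11). Neither tissue had overlap, and the gap between the groups was 0.31 in the lung and 0.11 in the heart.

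The non-coding gene 2610507I01Rik split the WT mice. In the lung it was at 8.50 in WT replicate 1 and listed at 0 in WT replicates 2 and 3, and the KO lungs were at 9.49, 9.33 and 9.50. In the heart it was at 7.82 in WT replicate 1, at 0 in replicate 2 and at 3.66 in replicate 3, and the KO hearts were at 8.52, 8.85 and 8.80. In other words, the same WT mouse carried the high value in both organs. Its lung held 306 estimated counts, whereas the KO lungs held 610 to 992, and after scaling the mean of the KO lungs was 1.91 times that of WT lung 1. Counting 3 reads for each WT lung at 0, the KO lungs were at least 196-fold higher than WT lung 2 and at least 286-fold higher than WT lung 3. In the heart the KO mean was 1.92 times WT replicate 1, at least 79.6-fold above replicate 2, and 36.8 times replicate 3, whose value stood for 6.44 estimated counts. The mean difference of 6.61 in the lung and 4.90 in the heart therefore depends on which WT mice are counted, and it was 9.44 and 6.90 without WT replicate 1. Without WT replicate 2 it was 5.19 in the lung and 2.99 in the heart, and without WT replicate 3 it was 5.19 and 4.81. With the 0 values taken as missing it was 0.94 in the lung, where WT replicate 1 alone is then left, and 2.99 in the heart.

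Gm12191, the copy of Rpl30, was higher in KO. Its lung values were 10.50, 8.92 and 9.46 in WT and 10.71, 10.70 and 10.80 in KO, a difference of 1.11 (standard error 0.46). In the heart the values were 9.95, 10.10 and 10.17 in WT and 10.23, 10.40 and 10.58 in KO, a difference of 0.33 (standard error 0.12), with a gap of only 0.06 between the groups. WT lung 1 again lay near the KO lungs, but WT heart 1 was the lowest of the hearts.

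Gm6685, the copy of Cyb5d1, was given reads in every WT library and in no KO library. WT lungs were at 3.97, 5.44 and 5.05 and WT hearts at 3.77, 4.96 and 5.21, while the 3 KO lungs and 3 KO hearts were listed at 0. The WT values stand for 10.99 to 35.82 estimated counts. With 3 reads allowed for each KO library, the counts given to Gm6685 were at least 9.90-fold lower in KO lungs and at least 8.31-fold lower in KO hearts. Reads of Gm6685 that were given to Cyb5d1 are not covered, so these are not bounds on its RNA.

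Gm38534 and Gm12167 were mainly seen in the heart. Gm38534 was at 6.86, 6.75 and 6.90 in WT hearts and at 4.24, 4.35 and 4.56 in KO hearts, a difference of -2.45 (standard error 0.10), and in no lung did its gene value exceed 1.22 or its estimated count 1.02, so no lung difference was detectable at this depth. Gm12167 was at 4.19, 4.42 and 4.38 in WT hearts and at 6.80, 6.98 and 7.46 in KO hearts, a difference of 2.75 (standard error 0.21). No WT lung had an estimated read of it, and the KO lungs were at 2.14, 0.35 and 0, where the highest value stands for 4.21 estimated counts.

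**Figure D1:**
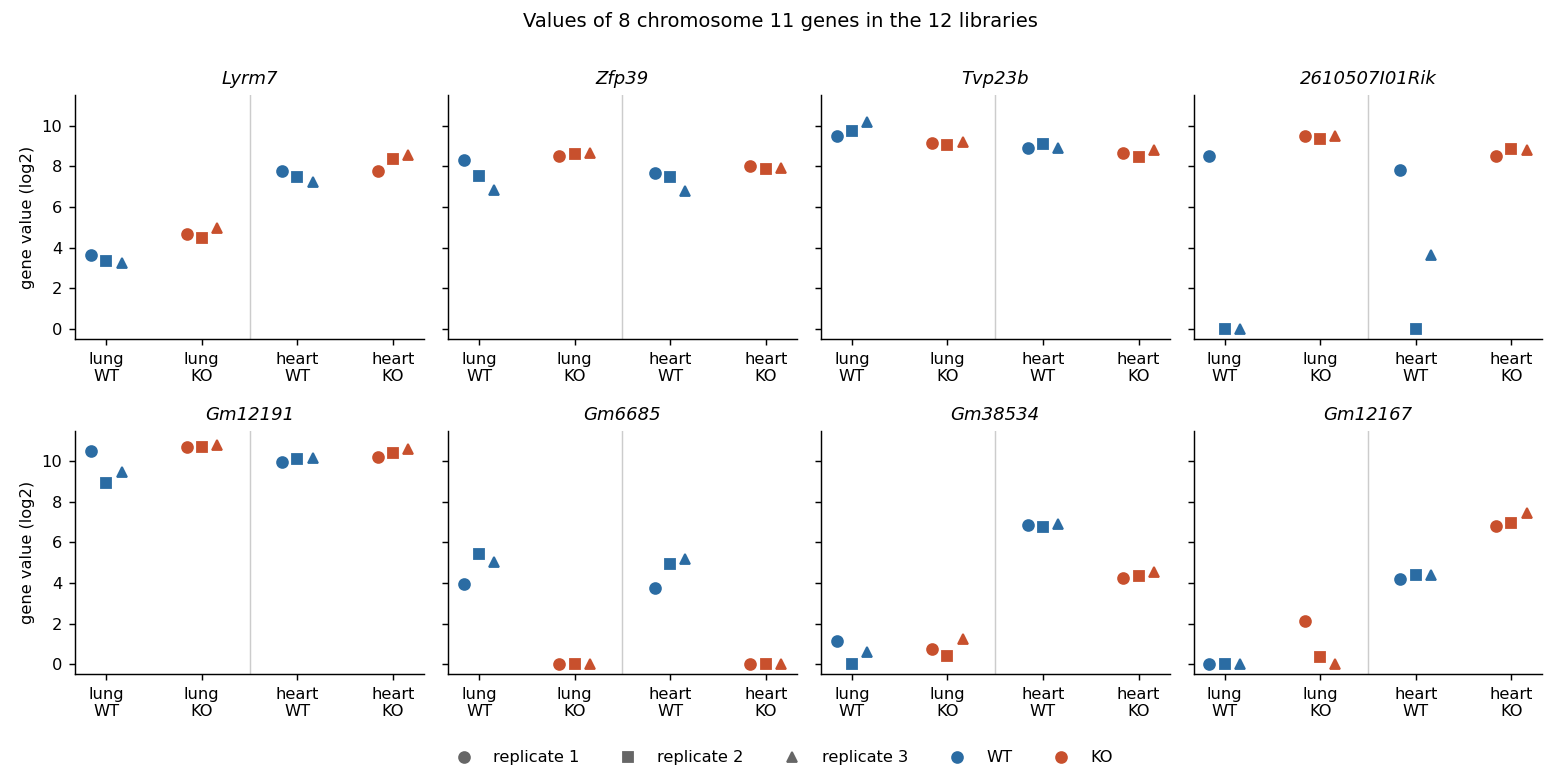
Gene value (log2, vertical axis) of each of the 8 genes in the 12 libraries, with tissue and genotype on the horizontal axis, WT in blue, KO in red, and one marker shape per replicate. Tvp23b and Gm6685 lie lower in KO in both tissues, Zfp39, Gm12191 and 2610507I01Rik lie higher, and WT replicate 1 of 2610507I01Rik (8.50 and 7.82) sits close to the KO libraries while WT replicate 2 is at 0 in both tissues.

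A filter on low values asked for a gene value of 3.46 in at least 3 libraries. This is log2 of 1 + 10 on the scale of the gene values, which is not exactly 10 estimated counts. Of the 8 genes, 6 passed it in the lung and all 8 in the heart, and Gm38534 and Gm12167 failed it in the lung. Among the 6 in the lung, 4 had every KO library above every WT library, against 6.41% of all 16551 lung genes tested, and 2 had every KO library below, against 6.4% (12.8% in either direction). Among the 8 in the heart, 4 were above and 3 were below, against 7.82% and 5.23% of 15303 genes (13% in either direction), and Lyrm7 overlapped. Over chromosome 11 without these genes and Adam19 the share was 14.9% in the lung and 17% in the heart. In the limma fit over all genes, where a call needed an adjusted p below 0.05, a 1.5-fold change or more and a mean of 6 or more in 1 group, none of the 6 lung genes passed, where 0.0665% of all genes did, and Gm38534 and Gm12167 passed in the heart, where 0.085% did. Lyrm7 and Gm6685 could not pass in the lung, where their highest group means were 4.72 and 4.82. The same held for Gm6685 in the heart (4.64). Over chromosome 11 without these genes and Adam19, 4 of 1302 genes (0.307%) passed in the lung and 5 of 1213 (0.412%) in the heart. Since these contrasts chose the genes, nothing is read from the counts. Zfp39, Tvp23b, 2610507I01Rik, Gm12191 and Gm6685 had groups apart in lung and heart alike, each in the same direction in both, and the lungs and hearts came from the same mice. The share of all genes with groups apart in both tissues was not counted, so nothing is read from this either. With 1 lung library left out at a time, the lung difference ran from 1.16 to 1.41 for Lyrm7, from 0.68 (without WT lung 3) to 1.43 for Zfp39, from -0.85 to -0.50 for Tvp23b and from 0.76 to 1.547 for Gm12191. The least separated of the genes with groups apart was Gm12191 in the heart, and the member just on the other side was Lyrm7 in the heart, whose groups overlapped by 0.02.

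**Figure D2:**
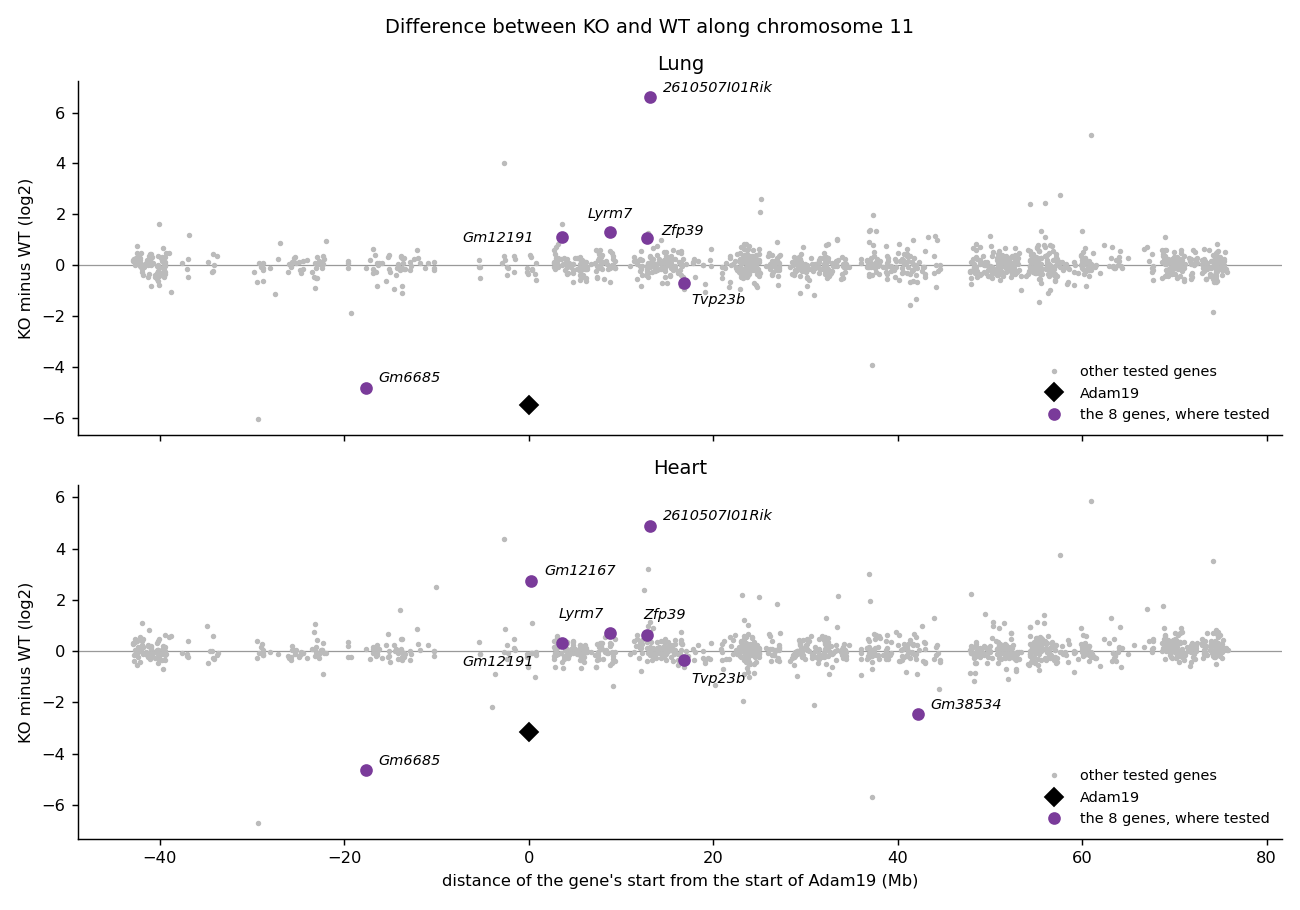
Difference between KO and WT (log2, vertical axis) for every tested gene of chromosome 11 against the distance of its start from the start of Adam19 (Mb, horizontal axis), with lung above and heart below. Adam19 is the black diamond, the named genes are purple, and other genes are grey; Gm6685 lies at -4.82 and -4.64 and 2610507I01Rik at 6.61 and 4.90, while most genes between the named ones lie near 0.

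In the lung, WT replicate 1 was the WT library nearest to the KO libraries for all 6 genes with groups apart. In the heart it was the nearest for 4 of 7 such genes, namely Zfp39, Tvp23b, 2610507I01Rik and Gm6685. Among all other genes with groups apart, WT replicate 1 was the nearest for 28% of 2115 in the lung. In the heart it was the nearest for 45.2% of 1990, a share near that of the named genes. The values of the named genes are those that chose them, so their counts are a description and nothing is read from them.

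The nearest tested gene on each side of each of the 8 genes was examined as well. Of the 16 neighbours, 2 had groups apart in the lung and 3 in the heart, which is near the shares of all genes tested (12.8% and 13%). In the lung these were Fbxw10, beside Tvp23b, with a difference of -0.95 and an adjusted p of 0.829 by limma, and Cyfip2, between Adam19 and Gm12167, with a difference of 0.39 and an adjusted p of 0.809. In the heart they were Mrpl55, beside 2610507I01Rik, with a difference of 0.76 and an adjusted p of 0.548, Gfpt2, beside Gm12191, with a difference of -0.64 and an adjusted p of 0.488, and Cyfip2. Cyfip2, a regulator of actin assembly, was the only neighbour past the thresholds in these fits, with a difference of 2.70 (standard error 0.21) and an adjusted p of 0.000985 in the heart. The median absolute difference of the neighbours was 0.14 in the lung and 0.21 in the heart. Cnot6, which holds Gm12191 and is read from the same strand, was at 10.60 to 11.54 in WT lungs and 10.98 to 11.06 in KO lungs. Its hearts were at 9.34, 10.13 and 9.49 in WT and at 9.30, 9.18 and 9.18 in KO. Every KO heart thus lay below every WT heart for Cnot6, while Gm12191 was higher in KO hearts. Reads from the introns of Cnot6 cannot be told apart from reads of Gm12191 where they cover that stretch, and their part was not tested.

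With the reads of a pseudogene added to those of its copies, the genotype groups overlapped for Gm6685 and for Gm12191. On the scale of log2(1 + scaled estimated count), Cyb5d1 was at 7.02, 6.72 and 6.99 in WT lungs and at 7.30, 7.18 and 6.99 in KO lungs. Cyb5d1 in the hearts was at 6.66, 6.75 and 6.53 in WT and at 6.98, 7.20 and 6.94 in KO, without overlap and with a difference of 0.39 (standard error 0.10). Added together, Gm6685 and Cyb5d1 were at 7.16, 7.17 and 7.29 in WT lungs and at 7.30, 7.18 and 6.99 in KO lungs, a difference of -0.052 (standard error 0.098), and the hearts differed by 0.093 (standard error 0.11). Gm6685 made up 9.24% to 26.8% of the sum in the WT libraries. The sum of this pair thus overlapped between the genotypes in both tissues, while its division into 2 genes did not.

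For Gm12191, 17 genes held a copy that covers at least 80% of it at 90% identity or more, namely Rpl30 and 16 pseudogenes. Rpl30 was at 11.16, 10.65 and 9.76 in WT lungs and at 10.71, 10.63 and 10.44 in KO lungs, and its hearts lay at 10.28 to 10.36 in WT and 10.27 to 10.52 in KO. Of the pseudogenes, Rpl30-ps9 on chromosome X, which has 1 mismatch to Gm12191 over 345 nucleotides, had a gene value of 10.09 in WT lung 2, the library where Gm12191 was lowest, and 0 in the other 5 lungs. It was at 7.83 and 7.63 in WT hearts 1 and 2 and at 0 in WT heart 3 and the 3 KO hearts. The sum of Gm12191 with its 17 copies was 11.87, 11.65 and 10.63 in WT lungs and 11.72, 11.67 and 11.65 in KO lungs, so the groups overlapped and the difference was 0.29 (standard error 0.38). In the heart the sum differed by 0.11 (standard error 0.092) with overlap. The share of Gm12191 in the sum was 38.7%, 15.1% and 44.4% in WT lungs and 49.7% to 55.8% in KO lungs, and 38.8% to 47.9% in WT hearts and 49.0% to 51.1% in KO hearts.

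**Figure D3:**
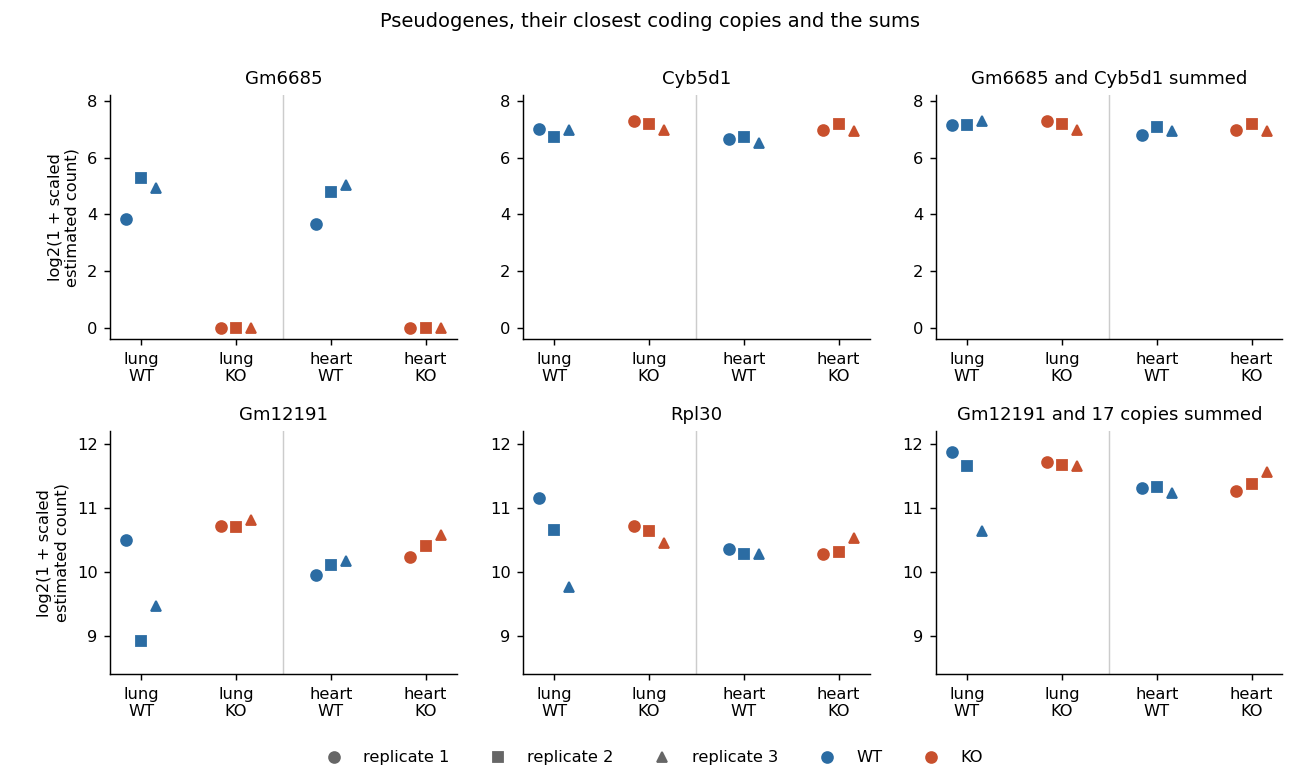
Value of each pseudogene, of its closest coding copy and of the sum (log2 of 1 + scaled estimated count, vertical axis) in the 12 libraries, with tissue and genotype on the horizontal axis and one marker shape per replicate; the vertical scale is shared within a row and differs between rows. KO libraries of Gm6685 are at 0 while the sum with Cyb5d1 stays between 6.81 and 7.30 in all 12 libraries, and WT lung 2 of Gm12191 (8.92) is no longer low once the copies are added (11.65).

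No copy of this size was found for the other 6 genes. Stretches of 2610507I01Rik matched transcripts of 275 other genes at 90% identity over 200 nucleotides, but the longest covered 10.8% of a transcript, and those of Gm38534 covered up to 18.4% and matched 3 genes.

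The transcript table shows what each gene value is made of. Most of Lyrm7 was the protein-coding ENSMUST00000144164.9 (3431 nucleotides, 5 exons), which took 82.3% to 100% of the gene's estimated counts in WT lungs, 57.0% to 86.8% in KO lungs, 66.0% to 89.0% in WT hearts and 72.3% to 81.9% in KO hearts. The transcript ENSMUST00000141703.2, annotated as a target of nonsense-mediated decay, had no estimated count in any WT lung and 12.3 and 5.53 in KO lungs 2 and 3, and it was above 0 in 1 WT heart (21.1) and in the 3 KO hearts (23.7 to 43.7). Tvp23b was nearly all ENSMUST00000014321.5 (1803 nucleotides), which held at least 98.2% of its counts in every library.

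2610507I01Rik was divided over 3 of its 4 transcripts, and the fourth, ENSMUST00000243015.1, was at 0 throughout. In the lung the largest share belonged to ENSMUST00000154354.3 with 61.4% in WT replicate 1 and 41.0% to 60.0% in KO, and in the heart to ENSMUST00000241332.1 with 49.7% in WT replicate 1 and 38.5% to 42.5% in KO. WT replicate 1 thus had the same leading transcript as the KO mice in each tissue. The 3 transcripts were at 0 together in WT lungs 2 and 3 and in WT heart 2, and in WT heart 3 the reads were all given to ENSMUST00000154354.3. Zfp39, Gm12191, Gm6685, Gm38534 and Gm12167 have 1 transcript each in the table.

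**Figure D4:**
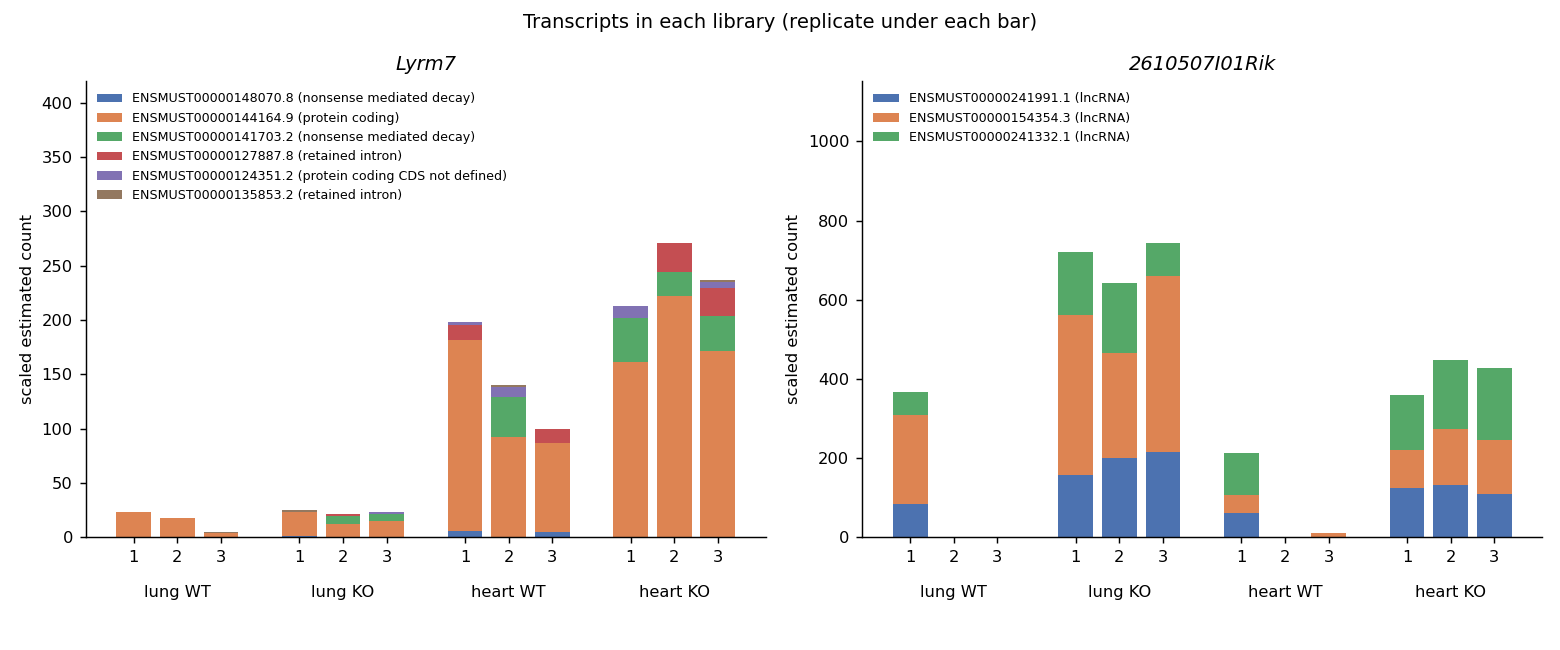
Scaled estimated count (vertical axis, from 0) of each transcript of Lyrm7 and 2610507I01Rik, stacked, in the 12 libraries (horizontal axis, by group and replicate). The coding transcript ENSMUST00000144164.9 makes up most of each Lyrm7 bar, and for 2610507I01Rik the bars of WT replicate 1 hold the same 3 transcripts as the KO bars while the other WT bars are at or near 0.

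The difference between lung and heart, averaged over the genotypes, was not the contrast that chose the genes, and limma was fitted to it over 17666 genes and all 12 libraries. Gm38534 and Gm12167 entered this fit through their heart values, having failed the filter on low values in the lung, so their differences are a description with no test. Of the other 6 genes, Lyrm7 was higher in heart, Tvp23b was higher in lung and 4 did not pass. Among these 4, Gm6685 could not pass, since its highest group mean was 4.82 and a call needed 6. Over all genes 51.3% passed, 30.1% with the lung higher and 21.2% with the heart higher, so 2 of 6 is no more than this background. The median gene was 0.31 higher in lung, and 0.21 or 0.071 after median scaling or quantile normalization, so differences are also given relative to 0.31.

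Lyrm7 was lower in lung than in heart, with a difference in gene value of -3.80 (lung minus heart, log2, standard error 0.20, adjusted p 1.67e-09), or -4.11 relative to the median gene. Each of the 6 mice had the higher value in its heart, by -3.10 to -4.15 (lung minus heart). Its coding transcript ENSMUST00000144164.9 also passed, at -3.25 with an adjusted p of 5.17e-05, where 33.5% of 43716 transcripts passed. Other genes of the pathway were higher in heart as well, where 21.2% of all genes passed the thresholds in that direction. All 14 subunits and assembly factors of complex III were higher in heart past the thresholds, with a median of -2.95. So were 9 of 10 other LYR motif proteins, with a median of -1.70. Uqcrc1, a core subunit of complex III, was at 10.62 to 10.97 in lungs and differed by -4.22 (adjusted p 2.88e-12), and Uqcrfs1, the Rieske protein that Lyrm7 handles, differed by -4.15 (adjusted p 1.84e-09). Ndufb9 of complex I (-3.63, adjusted p 1.12e-10) and Fmc1 (-3.15, adjusted p 1.25e-09) were the LYR proteins with the largest differences, and Lyrm4 was the exception that did not pass on the deposited values and passed under both other scalings.

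Gm38534 had a lung minus heart difference of -4.93 (standard error 0.29) and Gm12167 one of -5.29 (standard error 0.37), with the heart higher in 6 of 6 mice for each. Since their lung values are at or near 0, these sizes depend on how 0 is treated. With 3 reads allowed for each WT lung, Gm12167 was at least 5.91-fold higher in WT hearts. Their single transcripts, ENSMUST00000206566.3 and ENSMUST00000148132.2, gave -4.87 and -5.22.

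Tvp23b was higher in lung by 0.66 (standard error 0.12, adjusted p 0.000292), 0.35 above the median gene and in 6 of 6 mice by 0.39 to 1.26. This fold of 1.58 is close to the threshold of 1.5, and the call ended under median scaling (0.56) and without WT replicate 3 (0.55). Among the related Golgi membrane proteins, 4 of 10 were higher in lung and 3 in heart past the thresholds, against 30.1% and 21.2% of all genes. Yipf7, whose lung values were 2.76 to 4.34, differed by -7.81 (adjusted p 1.19e-11), and Yipf6 differed by 1.69 (adjusted p 4.66e-08).

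Zfp39 was at a mean of 8.08 in lung and 7.63 in heart, a difference of 0.45 with an adjusted p of 0.0878, and the lung was higher in 6 of 6 mice by 0.03 to 0.73. With the mouse as a block the adjusted p was 0.0147, but the fold of 1.37 stayed under the threshold. Of 17 other Zfp genes of chromosome 11 tested, 3 were higher in lung and 3 in heart past the thresholds, against 30.1% and 21.2% of all genes. The largest differences were those of Zfp750 (4.83, adjusted p 1.40e-07), which did not reach the minimum group mean of 6, and Zfp287 (1.49, adjusted p 1.66e-07).

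2610507I01Rik, Gm12191 and Gm6685 did not pass the test between the tissues. 2610507I01Rik differed by -0.14 (standard error 1.46, adjusted p 0.936), and the 4 mice with values well above 0 in both tissues had the lung higher by 0.48 to 0.97. With the 0 values taken as missing the sign changed, to 1.74 higher in lung. That fit left WT lung 1 alone among the WT lungs. It kept WT heart 3 at 3.66, whose own lung was dropped, so the 1.74 leans on that low heart library. Gm12191 differed by -0.055 (standard error 0.20, adjusted p 0.816) and ranged from -1.18 to 0.55 over the mice. Gm6685 differed by 0.088 (standard error 0.36, adjusted p 0.834), and in the KO mice both tissues were at 0.

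**Figure D5:**
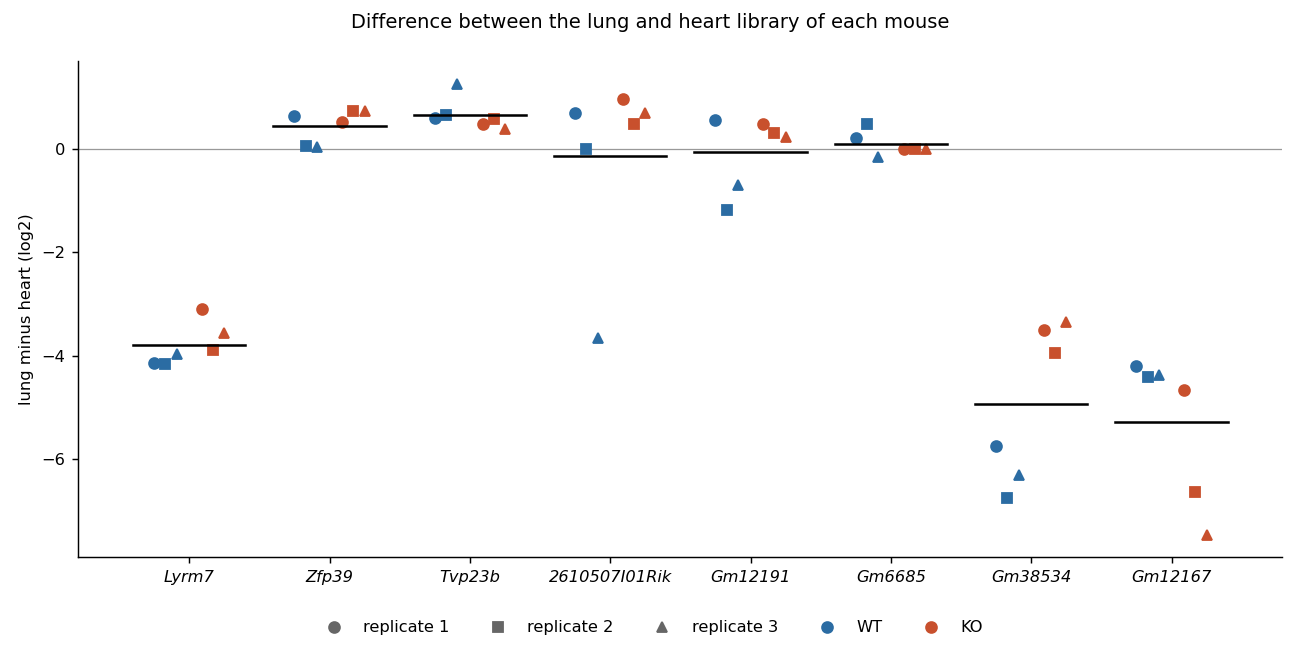
Lung value minus heart value of the same mouse (log2, vertical axis) for each of the 8 genes (horizontal axis), WT in blue and KO in red with one marker shape per replicate, and the mean over the 6 mice as a black line. Lyrm7, Gm38534 and Gm12167 lie far below 0 in all 6 mice, Tvp23b and Zfp39 lie above 0 in all 6, and the WT mice of 2610507I01Rik spread from -3.66 to 0.69.

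Between KO and WT, no gene of the lists related to the 3 coding genes passed the thresholds, which 0.0665% of all genes passed in the lung and 0.085% in the heart. An unadjusted p under 0.05 was reached by 5.93% of all genes in the lung and 7.46% in the heart. In limma fits over all genes, 0 of 10 LYR motif proteins passed in either tissue, with 0 in the lung and 1 in the heart at an unadjusted p under 0.05, and limma-voom weights gave 0 passes, with 0 and 1. For complex III 0 of 14 passed in either tissue, with 1 in each at an unadjusted p under 0.05 and the same under limma-voom. The TVP23 and YIP family had 0 of 9 passes in the lung and 0 of 10 in the heart, with 0 and 2 at an unadjusted p under 0.05 and 0 and 1 under limma-voom, and the Zfp genes of chromosome 11 had 0 of 17 and 0 of 16, with 0 at an unadjusted p under 0.05 in either fit. The medians of the 4 lists lay at -0.24, -0.26, -0.043 and -0.028 in the lung, where the median of all genes was 0.010, and at 0.12, 0.095, 0.094 and 0.15 in the heart, where it was 0.032. In the lung the difference was above 0 for 0 of 10 LYR motif proteins (-0.40 to -0.095), 3 of 14 complex III genes, 2 of 9 TVP23 and YIP genes and 8 of 17 Zfp genes, against 51.6% of all genes. In the heart it was above 0 for 6 of 10, 9 of 14, 7 of 10 and 10 of 16, against 55% of all genes. The 2 largest differences of each list reached at most 0.64 in size. In the lung these were Ndufb9 (-0.40) and Fmc1 (-0.38), Ttc19 (0.52) and Uqcc2 (-0.49), Yipf7 (-0.39) and Yipf5 (-0.29), and Zfp879 (-0.64) and Zfp750 (0.52). In the heart they were Etfrf1 (-0.34) and Sdhaf3 (-0.27), Uqcc2 (0.41) and Ttc19 (-0.34), Yipf7 (-0.39) and Yipf2 (0.37), and Zfp652 (-0.45) and Zfp692 (0.43).

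For each of the 8 genes, the genes with the most similar pattern were found by Pearson's r over the 12 libraries after each tissue's mean was taken off, among 14330 genes tested in both tissues. Gm6685 had the closest match, Gm18860 on chromosome 8 with r = 0.99, and next Gm12663 on chromosome 11 with r = 0.98. Lyrm7 was most like F830016B08Rik (0.93) and Cdkl1 (0.89), Zfp39 like Cdc42ep3 (0.93) and Rpl3-ps1 (0.92), and Tvp23b like Pdia4 (0.91) and Tbc1d7 (0.91). 2610507I01Rik was most like Pla2g7 (0.92) and Tmem175 (0.91), Gm12191 like Kat5 (0.86) and Gm26795 (0.83), Gm38534 like Cd59a (0.89) and Clasp1 (0.88), and Gm12167 like Plekhh3 (0.92), also on chromosome 11, and Prrg4 (0.91). The lung and heart libraries share their mice, and these names are a description with no test.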

How the data were processed

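RNA of the lung and heart of 6 mice was sequenced from stranded total RNA libraries. The authors trimmed and quantified the reads against GENCODE transcripts of mm39 (their notes name cutadapt, STAR, Salmon and limma 3.42.2) and deposited log2 values per gene and per transcript. The deposited transcript values are log2(1 + estimated count). Gene values carry a constant for each library (-0.63 to 0.80), which was added here to the transcript values. The method behind it is not given in the sources used here.

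Designs were written for counts, and limma 3.58.1 (R 4.3.3, trend) on log2 values took their place, with Benjamini-Hochberg adjustment over all genes tested and tested on simulated data. Copies were searched with blastn 2.17.0 and annotation came from GENCODE vM39, which matched 99.0% of genes. The members and all lists were chosen with earlier results of these data known. Named genes are the 8 members, Adam19, their copies, neighbours, overlapping genes, the 2 most similar genes of each, and the 2 largest differences of each list, of which not every gene is reported here. The pairing of lung and heart comes from the mouse identifiers, and the deviations of a mouse's 2 libraries correlated at -0.07 to 0.14. Columns of other samples not used number 0.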

Additional observations from a re-analysis of the deposited data

How the results depend on the processing

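Leaving out 1 library at a time gave 10 to 14 genes past the thresholds between KO and WT lungs (11 with all libraries) and 10 to 21 in the heart (13 with all, 21 without KO heart 2). Requiring the minimum value in every library gave 1 gene in the lung and 7 in the heart, and taking 0 as missing gave 6 in the lung. Counts between lung and heart stayed within 1.5 times of 9070 genes and 14663 transcripts under every alternative run, and with the mouse as a block (the pairing) they were 9076 and 14330, with no change of call for the 8 genes. Between KO and WT, the heart difference of Gm6685 changed sign, to 0.093 when summed with its copy (the same at either identity limit). Lung minus heart, 2610507I01Rik (-0.14) went to 1.74 with 0 as missing, 0.53 without WT replicate 3 and 0.28 with a pseudocount of 10, Gm12191 (-0.055) and its transcript to 0.13 without WT replicate 2 and 0.011 without WT replicate 3, Gm6685 (0.088) to -0.49 under quantile normalization, and ENSMUST00000154354.3 (0.55) to -0.13 without WT replicate 1. Of these lung minus heart values, 1.74 came from a fit with WT lung 1 alone left among the WT lungs, and none of the others passed the thresholds. The sums of Gm12191 with copies covering 80% of its transcript were chosen after seeing the data. Sums for Zfp39, 2610507I01Rik and Gm38534, whose matches cover at most 18.4% of a transcript, were not run. With a pseudocount of 10, low values moved toward 0, Lyrm7 in the lung to 0.84 and Gm6685 to -1.92 in the lung and -1.79 in the heart. Of the members' differences between KO and WT recomputed under the alternatives, 208 moved by less than 1 SD of the replicates, 13 moved by more and 2 changed sign. The 208 include settings that cannot move a difference of means, such as another filter, no trend or a fit on all 12 libraries. For 2610507I01Rik the SD was wide (4.91 among WT lungs), so even a move from 6.61 to 9.44 counted as less than 1 SD. The 208 are therefore no measure of how stable the differences are. Low estimated counts limit what the lung can show for Lyrm7, Gm38534 and Gm12167.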
